A study of Rattus norvegicus with 29 samples.

Results

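Interferon-stimulated genes are the genes that cells switch on when they sense an interferon, and 38 of them were described here in rat dorsal root ganglia. They were a list of symbols chosen for this known response, and each was represented by the RefSeq transcript with the most reads over all libraries. Of the 38 listed, 34 had a row in the count files (Ddx58, Herc6, Ifi44l and Xaf1 had none), and 32 passed the filter on low counts, among 12556 tested transcripts of the 18092 counted. The transcripts of Mx1 held 5 reads and that of Tap2 held 49 reads over all 29 libraries, so these genes were not tested.

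RNA was sequenced with poly-A selection from whole C6 to C8 dorsal root ganglia of the affected side in elderly Lister Hooded rats; these ganglia hold the sensory neurons of the forelimb. Sham rats (called naïve in the series text, with no infusion described) had no stroke, vehicle rats had a cortical stroke on 1 side of the brain followed by a subcutaneous vehicle infusion, and NT3 rats had the same stroke with neurotrophin-3 in the infusion. Each library came from another rat, with ganglia removed at week 5 or at week 11, so weeks were compared between animals. The week 5 groups held sham rats 51, 60, 64 and 74, vehicle rats 1, 9, 14, 42 and 82 and NT3 rats 25, 56, 61, 62 and 85. The week 11 groups held sham rats 8, 11, 54, 63 and 81, vehicle rats 17, 27, 33, 50 and 57 and NT3 rats 36, 69, 71, 83 and 89. Values of libraries are always given in this order of rats. Expression is in CPM, the reads of a transcript relative to the scaled total of its library, which is not corrected for transcript length, so levels are compared between libraries and not between genes.

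Type I interferons (alpha and beta) act through a receptor of Ifnar1 and Ifnar2 chains, and the signal reaches the nucleus in a complex that contains STAT2 and IRF9 and binds a DNA element called the ISRE. Interferon gamma acts through another receptor and through GAS elements, and raises IRF1, guanylate-binding proteins and the machinery that loads peptides on class I molecules. In sensory ganglia these genes are known for the control of herpesviruses that stay latent in neurons.

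Libraries held 9555685 (week 11 vehicle rat 27) to 22773108 counted reads, and all but rat 27 held at least 16703574. Summed markers of sensory neurons were at 13783 to 19891 CPM, as the tissue label implies. Libraries that stood apart were rat 27, with 38.3% of its reads outside annotated features and 808 CPM of summed brain or spinal cord markers against 339 to 551 CPM in the others, and week 11 sham rat 8, with 25.4% of its reads outside features. Week 11 sham rat 11 had 27.0% outside features, and the other 26 libraries had 29.4% to 34.8%.

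The windows of 250 bases before to 50 bases after the gene start were read from RefSeq promoters of the build GRCr8, a later assembly than the one the reads were aligned to, and 31 of the 38 genes had one. The ISRE letters searched were GAAANNGAAA on either strand, and they stood in 21 of these 31 windows (67.7%), against 3.92% of all 33469 windows in the table. With a C after the letters they stood in 14 of 31 (45.2%), against 0.881% of all. The GAS letters TTCNNNGAA, which read alike on both strands, stood in 7 of 31 (22.6%), against 8.87% of all. In the window of Bst2 a GAS match overlapped the ISRE match. Matches are a description of the letters, and a window with none says nothing about the factors that bind there. The stretches of 8 genes on which the results below turn are shown from upstream of the start, 5′ to 3′ on the strand of the gene, with the ISRE match in capitals (as the reverse complement where it lies on the other strand) or, for Irf1, the GAS match. Irf7 is from chr1:205800053-205800122 (minus strand, match starting 69 bases before the start). Irf1 is from chr10:38417763-38417831 (plus strand, match starting 142 bases before the start). Ifih1 is from chr3:67683988-67684057 (minus strand, match starting 59 bases before the start). Eif2ak2 is from chr6:21941108-21941153 (plus strand, match starting 16 bases before the start). Ifit3 is from chr1:241527252-241527321 (plus strand, match starting 44 bases before the start). Oas1a, whose capitals hold 2 overlapping matches, is from chr12:41330395-41330465 (plus strand, match starting 41 bases before the start). Gbp2 is from chr2:234005666-234005726 (plus strand, match starting 31 bases before the start). Tap1 is from chr20:4668625-4668694 (minus strand, match starting 121 bases before the start).
Irf7: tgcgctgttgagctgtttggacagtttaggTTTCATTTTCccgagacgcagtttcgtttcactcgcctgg
Irf1: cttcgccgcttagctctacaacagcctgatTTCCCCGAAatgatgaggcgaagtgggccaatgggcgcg
Ifih1: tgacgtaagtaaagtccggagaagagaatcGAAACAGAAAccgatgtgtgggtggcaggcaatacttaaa
Eif2ak2: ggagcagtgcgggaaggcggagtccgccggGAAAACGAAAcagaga
Ifit3: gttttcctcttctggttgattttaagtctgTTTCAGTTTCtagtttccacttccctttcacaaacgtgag
Oas1a: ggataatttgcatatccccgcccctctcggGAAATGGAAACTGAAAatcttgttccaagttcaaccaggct
Gbp2: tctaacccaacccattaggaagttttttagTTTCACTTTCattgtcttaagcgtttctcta
Tap1: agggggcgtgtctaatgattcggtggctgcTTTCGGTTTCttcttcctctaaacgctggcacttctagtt

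Reads of the interferons themselves were at or near 0. Over all 29 libraries Ifnb1 (interferon beta) had 7 reads, Ifng (interferon gamma) 4 and Ifna4, the alpha gene with the most reads of those listed, 24. Of the receptors, Ifngr1 and Ifngr2 for interferon gamma were measured, with group means of 90.1 to 96.95 and 45.7 to 49.7 CPM. Ifnar1 had 133 reads on 2 transcripts, and Ifnar2 had no row. Reads shared by transcripts of 1 gene may be left out of such counts, so Ifnar1 and Mx1, listed with 6 transcripts, are not measured in full. In whole tissue, fewer cells of a type and less RNA per cell cannot be told apart. Oas1a, Oasl and Oasl2, the Gbp genes and the Ifit genes each belong to families of similar sequence, between which reads may be split.

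Of the factors that carry the signal, Stat2 and Irf9, which act together at the ISRE, varied little between rats, and Irf7, which amplifies the response, varied more. At week 5 Stat2 (NM_001011905) was at 149.8, 134, 127 and 163 CPM in sham, 143, 135, 134, 135 and 132 in vehicle and 131, 134, 141, 132 and 136 in NT3 libraries. At week 11 Stat2 was at 159, 138, 131, 135 and 142 CPM in sham, 133, 153, 131, 147 and 143 in vehicle and 139.9, 148, 134, 134 and 137 in NT3 libraries. The within-group standard deviation of its log2 CPM was 0.09, smaller than in all but 4.87% of tested transcripts. At week 5 Irf9 (NM_001012041) was at 47.1, 44.8, 46.3 and 49.96 CPM in sham, 47.6, 40.7, 39.9, 39.5 and 37.1 in vehicle and 38.2, 37.9, 46.7, 40.9 and 39.4 in NT3 libraries. At week 11 Irf9 was at 51.7, 49.7, 36.8, 46.8 and 43.6 CPM in sham, 37.5, 50.9, 41.9, 46.4 and 43.9 in vehicle and 40.5, 46.5, 40.3, 43.6 and 45.7 in NT3 libraries. Irf9 was lower in week 5 vehicle and NT3 libraries than in most sham libraries, with overlap between the groups. At week 5 Irf7 (NM_001033691) was at 17.3, 10.7, 11.1 and 13.3 CPM in sham, 10.7, 10.4, 7.39, 10.04 and 9.28 in vehicle and 10.6, 10.4, 12.4, 13.98 and 10.3 in NT3 libraries. At week 11 Irf7 was at 14.5, 25.2, 8.74, 15.2 and 15.5 CPM in sham, 9.53, 19.2, 11.4, 11.6 and 14.9 in vehicle and 13.8, 15.2, 9.75, 20.8 and 14.96 in NT3 libraries. Irf7 was highest in week 11 sham rat 11, NT3 rat 83 and vehicle rat 27, and its week 11 groups overlapped throughout. At week 5 the vehicle libraries lay below the sham libraries, by a margin that is lost in rounding at 10.7 CPM. Its within-group standard deviation was 0.36 on the log2 scale. At week 5 Irf1 (NM_012591) was at 16.4, 19.97, 17.03 and 24.4 CPM in sham, 15.5, 15.4, 16.5, 15.5 and 16.03 in vehicle and 21.4, 21.4, 18.4, 17.1 and 24.2 in NT3 libraries. At week 11 Irf1 was at 20.1, 23.7, 19.8, 21.7 and 21.7 CPM in sham, 24.02, 29.8, 20.7, 18 and 19.7 in vehicle and 15.8, 23.1, 23.1, 25.7 and 20.8 in NT3 libraries. Irf1, the factor that interferon gamma raises, was at 15.4 to 16.5 CPM in all 5 week 5 vehicle libraries, below each library of week 5 NT3 and week 11 vehicle. In week 11 NT3 rat 36 it was also low.

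The RNA sensors had no shared pattern. At week 5 Ifih1 (NM_001109199) was at 8.05, 12.97, 9.81 and 4.52 CPM in sham, 7.15, 11.9, 15.7, 14.9 and 14.4 in vehicle and 13.8, 11.2, 6.77, 14.2 and 16.6 in NT3 libraries. At week 11 Ifih1 was at 3.57, 12.9, 15.7, 15.4 and 14.6 CPM in sham, 15.002, 10.4, 17.5, 6.9 and 16.6 in vehicle and 12.04, 6.16, 14.9, 18.1 and 15.7 in NT3 libraries. Ifih1 encodes MDA5, which senses long double-stranded RNA in the cytoplasm, and its 5 lowest libraries, rats 8, 74, 69, 61 and 50, each belonged to another group. At week 5 Dhx58 (NM_001098788) was at 8.25, 4.73, 4.53 and 5.99 CPM in sham, 4.82, 4.31, 3.56, 4.55 and 3.69 in vehicle and 5.95, 3.404, 5.21, 5.17 and 5.08 in NT3 libraries. At week 11 Dhx58 was at 5.15, 9.503, 4.12, 7.73 and 7.16 CPM in sham, 5.59, 8.96, 3.73, 5.45 and 8.54 in vehicle and 5.11, 6.11, 5.01, 8.02 and 6.05 in NT3 libraries. Dhx58 encodes LGP2, a relative of MDA5 without its signalling domains, and it was highest in rats 11, 27, 57, 51 and 83, again from several groups. Among the week 11 vehicle libraries rats 27 and 57 were high and the others were not, so the groups overlapped.

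Direct antiviral effectors were the largest class, with 13 tested genes. At week 5 Ifit3 (NM_001007694) was at 1.9, 1.33, 1.42 and 1.52 CPM in sham, 1.73, 1.79, 1.47, 1.61 and 1.27 in vehicle and 2.37, 1.94, 1.61, 3.04 and 1.38 in NT3 libraries. At week 11 Ifit3 was at 1.09, 2.56, 1.32, 2.91 and 1.96 CPM in sham, 1.65, 6.59, 2.06, 1.6 and 3.01 in vehicle and 2.77, 1.74, 1.47, 7.86 and 4.11 in NT3 libraries. Ifit proteins bind foreign RNA. At week 5 Oas1a (NM_138913) was at 5.35, 2.61, 2.37 and 2.59 CPM in sham, 2.81, 2.63, 1.64, 1.94 and 2.59 in vehicle and 2.98, 2.24, 2.97, 4.08 and 2.77 in NT3 libraries. At week 11 Oas1a was at 2.85, 6.84, 2.86, 3.52 and 4.99 CPM in sham, 1.43, 9.47, 3.34, 2.75 and 5.58 in vehicle and 3.04, 3.48, 2.02, 6.16 and 3.25 in NT3 libraries. Oas1a makes the 2′-5′ oligoadenylates that switch on RNase L. Ifit3 was highest in NT3 rat 83 and vehicle rat 27, and Oas1a in vehicle rat 27, sham rat 11 and NT3 rat 83, all of week 11, and in both genes every week 11 group also held libraries within the range of week 5. In log2 CPM, Ifit3 in rat 27 was 1.63 and Oas1a in rat 27 was 1.47 above the median of the group. At week 5 Oasl (NM_001009681) was at 5.25, 3.55, 5.22 and 5.28 CPM in sham, 4.76, 4.59, 3.73, 4.44 and 4.15 in vehicle and 4.57, 4.33, 3.75, 6.37 and 5.25 in NT3 libraries. At week 11 Oasl was at 5.51, 11.4, 5.66, 6.08 and 6.21 CPM in sham, 4.22, 6.59, 5.51, 5.9 and 6.44 in vehicle and 5.54, 5.404, 4.78, 8.85 and 4.63 in NT3 libraries. Oasl, an oligoadenylate synthetase-like protein, was high in sham rat 11 and NT3 rat 83.

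At week 5 Ifit2 (NM_001024753) was at 9.85, 12.5, 9.17 and 4.87 CPM in sham, 9.36, 11.5, 14.4, 15.4 and 13.5 in vehicle and 17.9, 12.6, 6.81, 16.1 and 17.1 in NT3 libraries. At week 11 Ifit2 was at 2.36, 15.8, 17.7, 14.8 and 18.7 CPM in sham, 15.4, 15.3, 14.8, 7.75 and 19.8 in vehicle and 14.8, 7.24, 14.5, 29.1 and 20.6 in NT3 libraries. Ifit2 was lowest in sham rat 8 and highest in NT3 rat 83, both of week 11. At week 5 Eif2ak2 (NM_019335) was at 33.1, 55.9, 41.02 and 19.5 CPM in sham, 37.7, 55.8, 80.1, 71.4 and 64.4 in vehicle and 75.7, 46.5, 28.3, 65.4 and 72.2 in NT3 libraries. At week 11 Eif2ak2 was at 9.45, 60.6, 75.8, 60.3 and 69.5 CPM in sham, 65.9, 32.2, 72.3, 23.6 and 88.5 in vehicle and 54.3, 23.9, 69.2, 79.96 and 67.8 in NT3 libraries. Eif2ak2 encodes PKR, the kinase that stops translation when it binds double-stranded RNA. The 5 lowest libraries of both genes were those of Ifih1, and the lowest Eif2ak2 library (rat 8) and the highest (vehicle rat 57) differed 9.37-fold. The groups overlapped. At week 5 Ifit1 (NM_020096) was at 0.45, 0.493, 0.475 and 0.508 CPM in sham, 0.758, 0.783, 1.02, 0.832 and 0.692 in vehicle and 0.661, 0.583, 0.389, 0.846 and 0.635 in NT3 libraries. At week 11 Ifit1 was at 0.485, 0.556, 0.879, 0.695 and 0.796 CPM in sham, 0.799, 1.44, 1.06, 0.4 and 1.07 in vehicle and 0.373, 0.329, 0.966, 0.714 and 0.971 in NT3 libraries. Ifit1 rested on 376 reads over all libraries, and at week 5 its 4 sham libraries lay below its 5 vehicle libraries.

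At week 5 Mx2 (NM_134350) was at 89.95, 69.3, 69.3 and 66.9 CPM in sham, 67.8, 66.3, 61.5, 68.5 and 69.7 in vehicle and 68.8, 63.3, 66.98, 82.6 and 70.6 in NT3 libraries. At week 11 Mx2 was at 50.4, 82.9, 74.4, 75.9 and 76.6 CPM in sham, 62.98, 80.3, 65.1, 63.1 and 111 in vehicle and 66.3, 67.8, 67.1, 88.2 and 80.8 in NT3 libraries. Mx2, a dynamin-like GTPase, was highest in vehicle rat 57 and lowest in sham rat 8. At week 5 Gbp2 (NM_133624) was at 56.4, 61.2, 59.4 and 74.4 CPM in sham, 25.6, 58.7, 58.3, 59.3 and 71.4 in vehicle and 82.3, 66.1, 52.6, 75.6 and 103 in NT3 libraries. At week 11 Gbp2 was at 49.3, 92.6, 80.7, 66.2 and 75.7 CPM in sham, 81.6, 169, 71.8, 68.5 and 97.6 in vehicle and 54.4, 67.3, 61.9, 75.7 and 93.4 in NT3 libraries. Gbp2, a guanylate-binding GTPase that attacks vacuoles of intracellular microbes, was lowest in week 5 vehicle rat 1 and highest in week 11 vehicle rat 27, and the other libraries lay between 49.3 and 103 CPM. At week 5 Bst2 (NM_198134) was at 9.95, 15.3, 16.8 and 19.95 CPM in sham, 8.39, 10.5, 8.13, 10.1 and 14.5 in vehicle and 13.1, 15.8, 11.2, 15.6 and 16.04 in NT3 libraries. At week 11 Bst2 was at 22.7, 26.95, 11.2, 20.02 and 13.6 CPM in sham, 9.07, 25.9, 15.5, 18.7 and 9.56 in vehicle and 14.4, 15.4, 12.97, 16.2 and 13.4 in NT3 libraries. Bst2 (tetherin), which holds budding viruses at the cell surface, was higher in rats 27, 11 and 8 than elsewhere, with overlap of the groups. Over all libraries Gbp5 was at 6.12 to 25.02 CPM (median 15.3, group means 12.99 to 18.4), Rsad2 (viperin) at 6.79 to 21.05 CPM (median 10.2, group means 9.65 to 13.7), Oasl2 at 12.5 to 27.01 CPM (median 15.1, group means 13.3 to 19.7) and the exonuclease gene Isg20 at 1.099 to 3.397 CPM (median 2.02, group means 1.84 to 2.398).

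In the class of ISG15 and the ubiquitin and ADP-ribose enzymes, Isg15 (NM_001106700), a ubiquitin-like protein joined to other proteins, and Usp18 (NM_001014058), the protease that removes it and dampens the interferon receptor, were high in single libraries. At week 5 Isg15 was at 8.3, 4.83, 5.59 and 7.21 CPM in sham, 5.25, 4.59, 4.12, 4.55 and 4.901 in vehicle and 5.57, 4.33, 6.67, 7.02 and 5.14 in NT3 libraries. At week 11 Isg15 was at 6.85, 15.01, 6.21, 8.94 and 10.6 CPM in sham, 5.48, 8.55, 4.34, 6.05 and 8.91 in vehicle and 5.43, 4.98, 5.33, 9.51 and 8.28 in NT3 libraries. Isg15 was highest in rats 11 and 81 of week 11 sham. At week 5 Usp18 was at 9.15, 5.38, 4.01 and 5.99 CPM in sham, 4.82, 4.42, 3.73, 4.94 and 3.92 in vehicle and 6.01, 3.598, 6.38, 6.97 and 6.58 in NT3 libraries. At week 11 Usp18 was at 6.79, 13.004, 6.48, 9.595 and 8.76 CPM in sham, 5.88, 13.1, 5.07, 5.6 and 11.8 in vehicle and 5.27, 6.81, 5.47, 12.3 and 8.05 in NT3 libraries. Usp18 was highest in vehicle rat 27 and sham rat 11, and the groups of week 11 overlapped in both. The 5 week 5 vehicle libraries of Isg15 lay within 4.12 and 5.25 CPM. At week 5 Trim25 (NM_001009536) was at 12.8, 15.1, 9.97 and 11.9 CPM in sham, 12.3, 11.8, 13.5, 12.3 and 12.6 in vehicle and 11.4, 12.4, 13.3, 12.7 and 13.8 in NT3 libraries. At week 11 Trim25 was at 13.2, 11.5, 12.8, 14.3 and 13.5 CPM in sham, 14.1, 15.9, 13.9, 15.2 and 14.5 in vehicle and 14.6, 15.3, 13.4, 15.2 and 13.5 in NT3 libraries. Trim25, a ubiquitin ligase that acts on the sensor RIG-I, ranged over a narrow interval, from 9.97 to 15.9 CPM. At week 5 Dtx3l (NM_001109053) was at 53.6, 50.8, 46.3 and 41.6 CPM in sham, 43.4, 48.01, 50.5, 51.03 and 48.03 in vehicle and 52.4, 44.5, 47.9, 43.8 and 53.95 in NT3 libraries. At week 11 Dtx3l was at 34.4, 43.6, 54.5, 45.2 and 50.7 CPM in sham, 50.8, 57.1, 53.3, 46.3 and 56.2 in vehicle and 46.8, 48.4, 45.6, 59.9 and 57.6 in NT3 libraries. Dtx3l is the ubiquitin ligase partner of Parp9. At week 5 Parp14 (NM_001191659) was at 39.2, 40.9, 33.1 and 30.9 CPM in sham, 29.5, 37.1, 40.2, 39.2 and 36.04 in vehicle and 44.1, 33.9, 34.1, 39.01 and 39.99 in NT3 libraries. At week 11 Parp14 was at 21.8, 34.8, 43.03, 42.8 and 43.4 CPM in sham, 42.3, 59.3, 42.5, 35.8 and 55.9 in vehicle and 38.7, 37.6, 35.9, 52.8 and 47.1 in NT3 libraries. Parp14 is an ADP-ribosyl transferase, and Dtx3l and Parp14 were lowest in sham rat 8. Parp9 was at 15.2 to 40.4 CPM (median 27.8, group means 25.8 to 33.3), and also lowest in rat 8.

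The class I genes shared 1 outstanding library. At week 5 Psmb8 (NM_080767) was at 10.5, 11.7, 14.6 and 14.4 CPM in sham, 10.2, 10.5, 11.2, 9.21 and 11.5 in vehicle and 11.4, 11.2, 12.8, 15.1 and 12.98 in NT3 libraries. At week 11 Psmb8 was at 18.5, 20.2, 10.6, 16.7 and 14.8 CPM in sham, 11.7, 31.6, 14.9, 14.3 and 11.2 in vehicle and 12.4, 15.7, 9.704, 13.03 and 11.5 in NT3 libraries. Psmb8 and Psmb9 are catalytic subunits of the immunoproteasome, which cuts proteins to peptides for class I molecules. At week 5 Psmb9 (NM_012708) was at 6.05, 6.805, 6.802 and 7.57 CPM in sham, 4.44, 5.82, 5.14, 5.103 and 4.901 in vehicle and 6.23, 5.64, 6.81, 8.56 and 7.96 in NT3 libraries. At week 11 Psmb9 was at 9.09, 10.5, 5.06, 9.16 and 6.79 CPM in sham, 5.65, 17.9, 7.57, 6.65 and 4.56 in vehicle and 6.82, 7.19, 6.07, 7.75 and 6.17 in NT3 libraries. Both subunits were higher in rat 27 than in any other library. At week 5 Tap1 (NM_032055) was at 11.7, 14.4, 12.6 and 14.01 CPM in sham, 11.5, 11.97, 8.47, 10.1 and 8.65 in vehicle and 9.37, 12.3, 13.6, 14.98 and 12.8 in NT3 libraries. At week 11 Tap1 was at 16.4, 14.8, 9.397, 17.7 and 12.3 CPM in sham, 10.5, 37.7, 14.03, 13.5 and 10.3 in vehicle and 12.04, 14.1, 11.8, 14.8 and 13.99 in NT3 libraries. Tap1 is a subunit of the transporter that carries these peptides into the endoplasmic reticulum. At week 5 B2m (NM_012512) was at 839.6, 834, 944 and 866 CPM in sham, 940.5, 838, 888, 853 and 917 in vehicle and 910.2, 802, 867, 850.4 and 912 in NT3 libraries. At week 11 B2m was at 755, 1144, 883, 769 and 871 CPM in sham, 864, 1287, 896, 844 and 937 in vehicle and 818, 872, 713, 894 and 936 in NT3 libraries. B2m is the light chain of class I molecules. All 4 were highest in vehicle rat 27, and there the median of the 4 lay 1.14 above the mean of the group on the log2 scale. The same library had 1075 CPM of summed macrophage markers, 61.3 CPM of T and NK cell markers and 808 CPM of brain or spinal cord markers, the highest of each among the 29. It was also the highest for neutrophil (18.3 CPM), plasmacytoid dendritic cell (53.6 CPM), satellite glia (848 CPM) and myelinating Schwann cell markers (4983 CPM), which makes 7 of 12 marker lists. Their part in these values was not tested.

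The remaining genes include Ifi27 (NM_203410) and Ifi44 (NM_001107729). At week 5 Ifi27 was at 367, 363, 462 and 378 CPM in sham, 435, 375, 302, 333 and 384 in vehicle and 287, 357, 395, 387 and 323 in NT3 libraries. At week 11 Ifi27 was at 583, 499, 282, 403 and 379.6 CPM in sham, 292, 363, 364, 385 and 259.8 in vehicle and 374, 364, 337, 333 and 318 in NT3 libraries. Ifi27 was highest in sham rats 8 and 11 of week 11. At week 5 Ifi44 was at 50.9, 48.2, 51.5 and 41.02 CPM in sham, 49.6, 45.1, 46.7, 49.7 and 50.7 in vehicle and 52.3, 45.2, 44.6, 53.4 and 52.05 in NT3 libraries. At week 11 Ifi44 was at 30.7, 68.6, 51.5, 48.8 and 59.2 CPM in sham, 51.2, 47.6, 47.2, 42.3 and 69.3 in vehicle and 49.2, 45.02, 47.5, 62.7 and 56.5 in NT3 libraries. Ifi44 was lowest in rat 8 and highest in vehicle rat 57. Ifi35, which binds the interferon-induced protein Nmi, was at 11.5 to 21.6 CPM (median 14.2, group means 13.2 to 16.6).

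**Figure D1:**
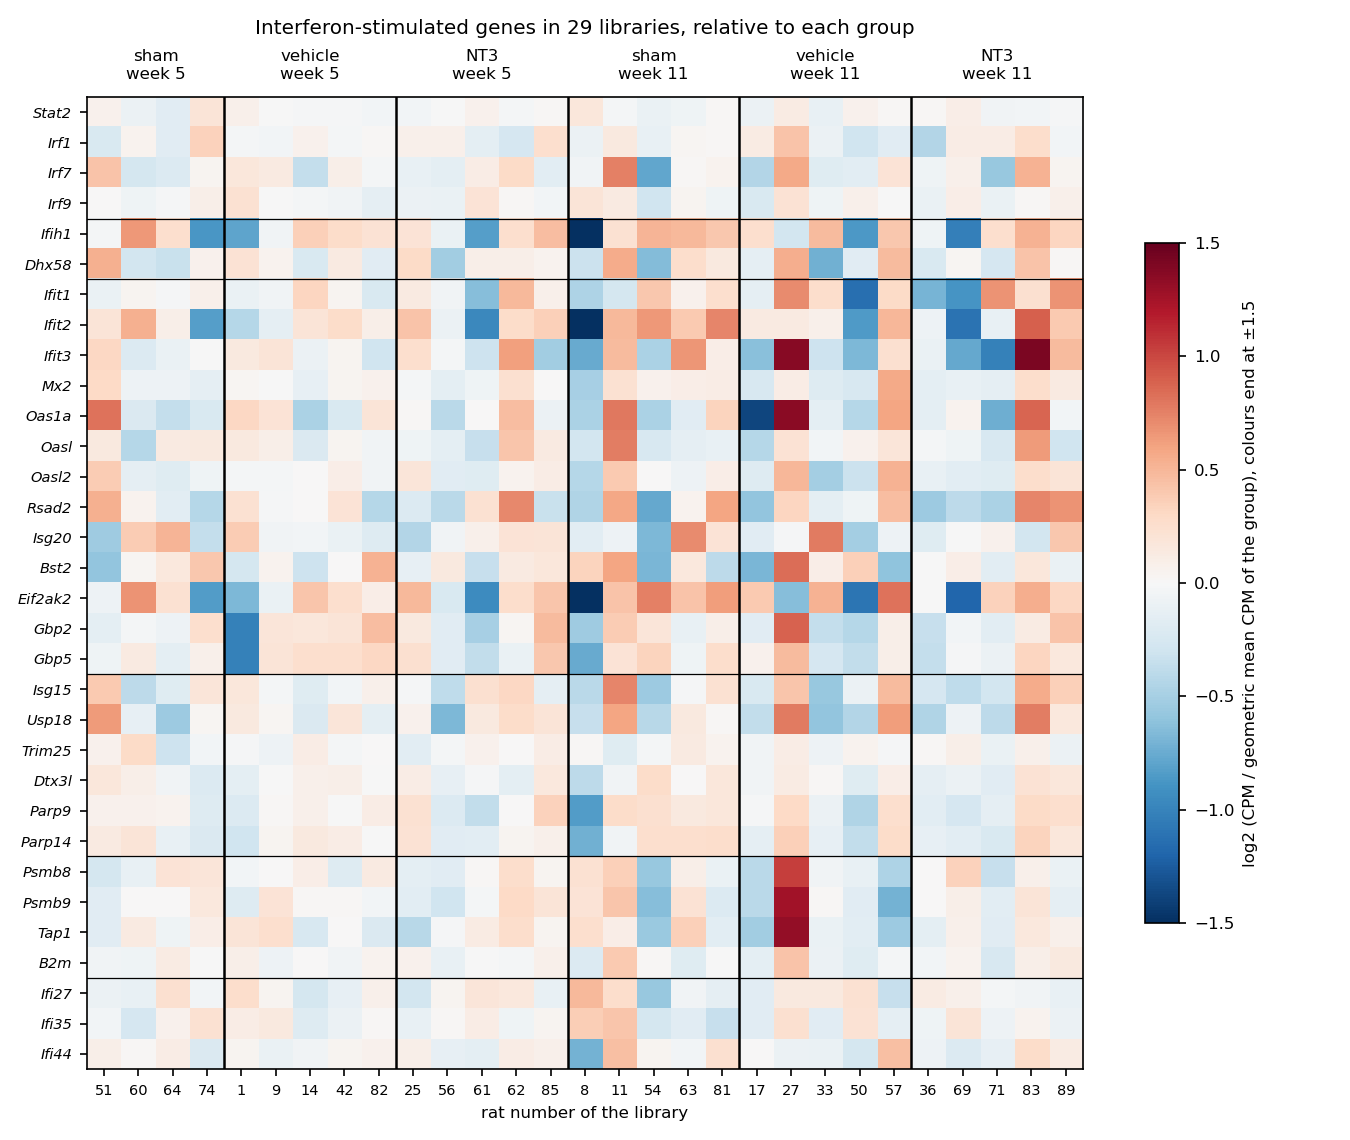
Expression of the 32 tested genes (lines, in the order of their roles) in 29 libraries (columns, by group and rat number), as log2 of CPM over the geometric mean of the group, with colours that end at ±1.5. Rat 27 of week 11 vehicle is red in the class I genes, rats 11, 27 and 83 in Irf7, Oas1a and Usp18, and rat 8 is blue in Ifih1, Ifit2 and Eif2ak2.

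Single libraries stood out in many genes at once. Rat 27 was the highest of its 5 week 11 vehicle libraries in 22 of the 32 genes and NT3 rat 83 the highest of its 5 week 11 NT3 libraries in 22, while sham rat 11 was the highest of its group in 17 and sham rat 8 the lowest in 16. The same was not counted over all tested transcripts, so these numbers are not read as particular to these genes. As a description over libraries that share their depth between genes, deviations of log2 CPM from the group mean had a median Pearson r of 0.29 over the 496 pairs of the 32 genes, against -0.01 over all pairs of tested transcripts. The share of pairs with r above 0.5 was 28.8% among the genes and 15.2% among all.

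Of 7 relations tested over the 29 libraries by permutation within groups, with Benjamini-Hochberg adjustment over the 7, 4 of which were added after the values were seen and are given below as a description, Irf7 and Ifit3 varied together (Pearson r = 0.722, permutation adjusted p = 0.000245; Spearman rho = 0.697, permutation adjusted p = 0.00042). Without sham rat 11 and NT3 rat 83, the libraries farthest from the median of Irf7, r was 0.687. Psmb8 and Tap1 also did (r = 0.834, permutation adjusted p = 0.000822; rho = 0.629, permutation adjusted p = 0.00329), with r = 0.634 without rats 27 and 11. Irf7 and Psmb8 had r = 0.565 (permutation adjusted p = 0.0151) but rho = 0.374 (permutation adjusted p = 0.107), and r = 0.545 without rats 11 and 83. For the relation of Irf7 and Psmb8 without sham rat 54 alone r was 0.461 (permutation p = 0.0521), and without vehicle rat 27 alone it was 0.467 (permutation p = 0.0695). A relation of Irf7 with Mx1 could not be computed.

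The percentage of reads that fell outside features is a library property that many of all tested transcripts went with, among them some of these genes. As a description, since the share was looked at after the values were seen, Pearson r of the deviations from the group mean was above 0.6 for 9 of 32 genes (28.1%), against 21.7% of all tested transcripts. These were Parp14 (r = 0.85), Parp9 (0.78), Dtx3l (0.78), Ifit1 (0.77), Ifit2 (0.76), Gbp5 (0.74), Ifih1 (0.73), Eif2ak2 (0.68) and Gbp2 (0.64). It was below -0.6 for 2 genes, Ifi27 (-0.67) and Ifi35 (-0.64), or 6.25%, against 12.0% of all. Irf7, Isg15, Tap1 and Psmb8 had r between -0.15 and 0.07. Without sham rats 8 and 74, r was 0.566 for Eif2ak2 and 0.653 for Ifih1. Irf7 and Eif2ak2 had r = -0.16 and rho = -0.194. The relations of Eif2ak2, Ifih1 and Irf7 with the share, and of Irf7 with Eif2ak2, were permuted after the values were seen. Their p-values are left out for that reason. No batch is given in the labels, so relations could not be computed within batches.

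**Figure D2:**
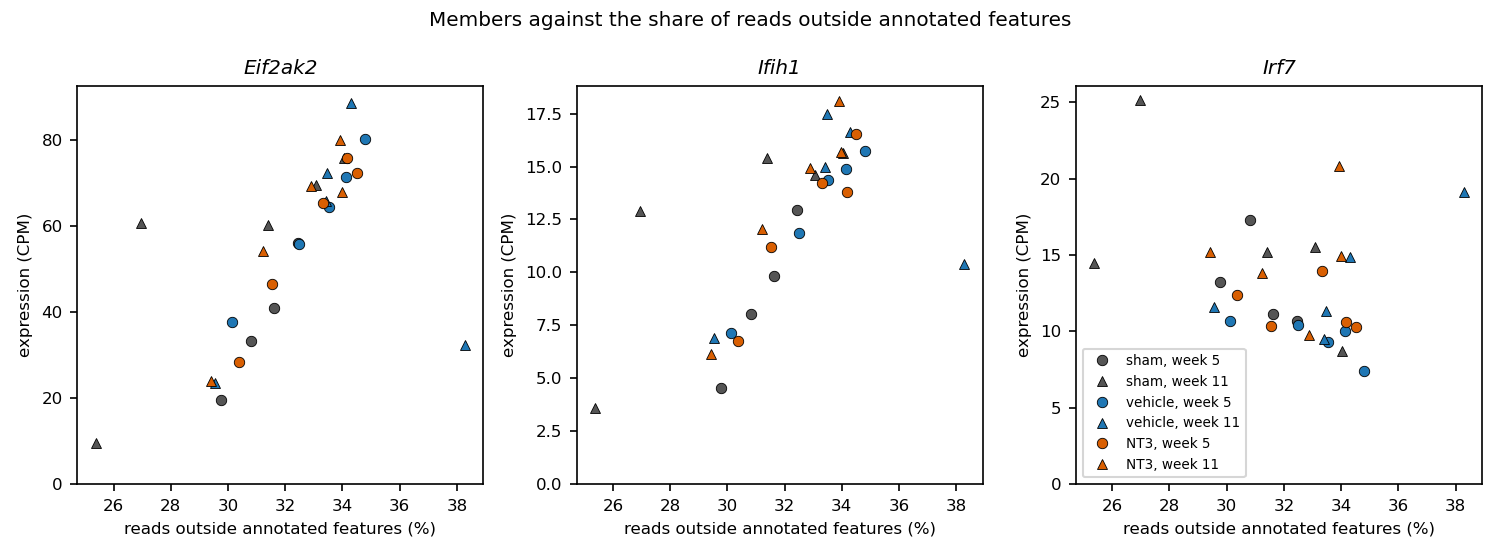
Expression in CPM of Eif2ak2, Ifih1 and Irf7 (vertical axes) against the percentage of reads outside annotated features (horizontal axes), 1 point per library, with colours for the arm and circles for week 5 and triangles for week 11. Eif2ak2 and Ifih1 are low where the share is low, apart from sham rat 11 at 27.0% (Eif2ak2 60.6 CPM), and in vehicle rat 27 at 38.3% (Eif2ak2 32.2 CPM) they lie below the libraries with 34.1% to 34.8%.

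**Figure D3:**
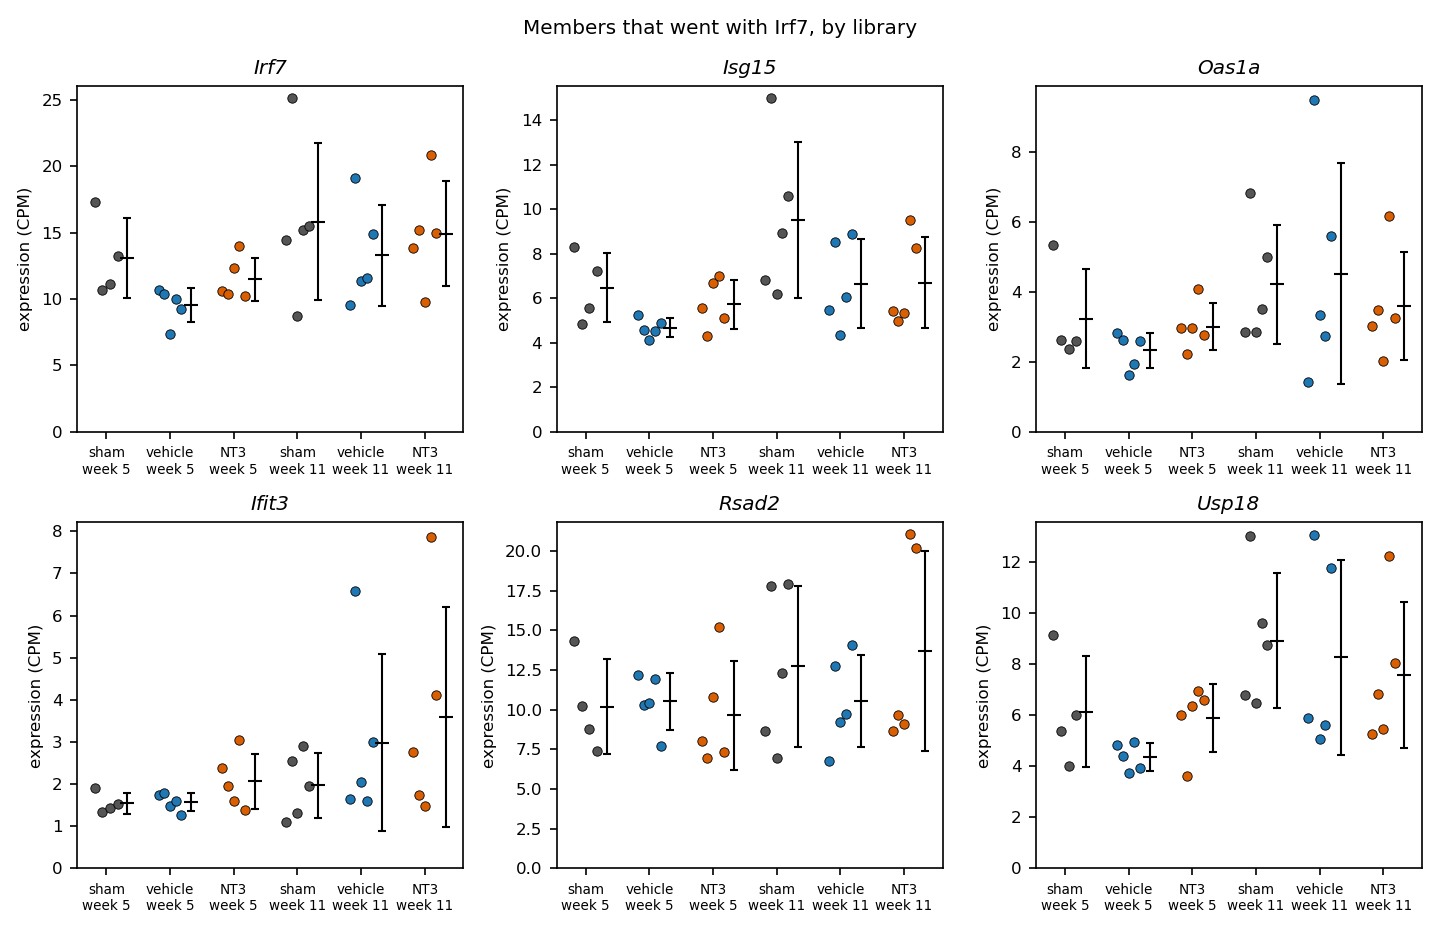
Expression in CPM of Irf7, Isg15, Oas1a, Ifit3, Rsad2 and Usp18 in each library (points) by group, with bars for the mean ± SD of 4 week 5 sham libraries and 5 libraries in each other group. Single libraries of week 11 stand above the rest of their group, such as sham rat 11 in Irf7 (25.2 CPM) and NT3 rat 83 in Ifit3 (7.86 CPM).

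Vehicle against sham, the comparison on rats with and without a stroke, gave no called gene and values of both signs. A gene is called where its adjusted p is under 0.05 (edgeR's quasi-likelihood test with Benjamini-Hochberg adjustment over all tested transcripts). The median log2 fold change with the weeks averaged was -0.03, against -0.01 over all tested transcripts, and 13 of 32 genes were positive (48.8% of all). With the share of reads outside features as a covariate it was -0.14 with 5 positive, without rats 8 and 27 -0.13 with 9 positive, and without rat 27 alone -0.07 with 12 positive. At week 5 Isg15 had a mean of 6.48 ± 1.57 CPM (SD, n = 4) among sham rats against 4.68 ± 0.422 CPM (SD, n = 5) among vehicle rats, and at week 11 of 9.52 ± 3.53 against 6.67 ± 1.99 CPM (SD, n = 5 each). Its log2 difference was -0.50 (SE 0.17; edgeR adjusted p = 0.269). Bst2 differed by -0.43 (SE 0.18; edgeR adjusted p = 0.281), Irf7 by -0.36 (SE 0.16; edgeR adjusted p = 0.293) and Ifi27 by -0.24 (SE 0.10; edgeR adjusted p = 0.29), all with lower values in vehicle rats. Ifit1, the RNA-binding protein of few reads, differed the other way, by 0.59 (SE 0.22; edgeR adjusted p = 0.269). Ifi35 differed by -0.20 (SE 0.10; edgeR adjusted p = 0.294).

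EdgeR called 0 of 32 genes (0% of all transcripts) with the weeks averaged, and 6 of 32 (18.8%) had an unadjusted p under 0.05, against 16.9% of all transcripts. DESeq2 called 0 and limma voom called 1, Isg15, against 0.287% of all transcripts. With the covariate 2 genes had an unadjusted p under 0.05 (2.91% of all), and without rats 8 and 27 10 did (11.6% of all). Without 1 library the number at an unadjusted p under 0.05 was 2 (without sham rat 11), 3 (without vehicle rat 14, vehicle rat 17 or sham rat 74) or 12 (without vehicle rat 27), and otherwise within 1.5 times the 6. Here and below, such counts without 1 library show how far the number moved and are not set beside the share of all transcripts. At week 5 edgeR called 0 of 32 (0% of all), with 4 (12.5%) at an unadjusted p under 0.05 against 8.38% of all, namely Ifit1 at 0.75 (SE 0.32), Bst2 at -0.59 (SE 0.26), Irf1 at -0.30 (SE 0.14) and Irf9 at -0.20 (SE 0.09). DESeq2 called 0 there and limma voom 1, Irf9, or 3.12% of the genes against 8.59% of all transcripts. Fitted on the groups of the comparison alone, 12 genes had an unadjusted p under 0.05 (18% of all), and in limma voom 11 did (30.2% of all). Without 1 library the number was 1 (without vehicle rat 14 or 42, or sham rat 74) or 2 (without vehicle rat 9 or sham rat 51). At week 11 edgeR called 0 (0% of all), and DESeq2 and limma voom 0 each. Ifi27 at -0.37 (SE 0.14), Isg15 at -0.52 (SE 0.23) and Parp14 at 0.34 (SE 0.16) made the 3 (9.38%) at an unadjusted p under 0.05, against 9.78% of all. The median at week 11 was 0.06 with 21 positive (51% of all). It turned to -0.01 without rat 27, -0.11 without rats 8 and 27, -0.07 with the covariate and -0.06 in limma voom. Without 1 library it was 1 gene at an unadjusted p under 0.05 (without sham rat 8 or 11, or vehicle rat 57), 5 (without vehicle rat 27, or sham rat 54 or 63) or 6 (without vehicle rat 50). The sources describe infusions in rats with a stroke alone, so stroke and vehicle infusion cannot be told apart. Summed macrophage markers lay at 293 to 458 CPM in sham and 194 to 272 CPM in vehicle libraries at week 5, and at 316 to 639 CPM and 428 to 1075 CPM at week 11, and their part in these values was not tested.

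No gene was called between NT3 and vehicle rats either, the comparison that asks about NT3 treatment in rats with a stroke. With the weeks averaged the median was 0.02 (-0.01 over all; 0.00 without NT3 rat 83, 0.09 without vehicle rat 27), edgeR called 0 of 32 (0% of all), and 1 (3.12%; 3.32% of all) had an unadjusted p under 0.05. That gene was Ifit1, at -0.42 (SE 0.21; edgeR adjusted p = 1). Next came Irf1 at 0.17 (SE 0.09) and B2m at -0.11 (SE 0.07). DESeq2 and limma voom called 0 each. Without 1 library the number was 4 (without vehicle rat 27), 2 (without NT3 rat 62) or 0 (without vehicle rat 1, 9, 14, 33, 42 or 57, or NT3 rat 25, 56, 61, 69, 83 or 85).

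Within week 5, 23 of the 32 genes were positive (45.1% of all), with a median of 0.15 (-0.01 over all). The class I genes had a median of 0.29. Irf1 was at 20.5 ± 2.81 CPM in NT3 and 15.8 ± 0.485 in vehicle libraries (SD, n = 5 each), without overlap, and differed by 0.38 (SE 0.13; edgeR adjusted p = 0.723) on the log2 scale. Gbp2 differed by 0.48 (SE 0.24), with overlap of the groups. Irf1 was the 1 gene (3.12%; 4.99% of all) at an unadjusted p under 0.05, and edgeR called 0 (0% of all), as did DESeq2 and limma voom. Without NT3 rat 56 or 61, or vehicle rat 82, 3 genes were at an unadjusted p under 0.05. Summed macrophage markers lay at 263 to 462 CPM in NT3 and 194 to 272 CPM in vehicle libraries of week 5, with Ptprc at 0 in all and the other 15 of 16 markers measured, and their part in the values of Irf1 was not tested. Summed fibroblast markers lay at 913 to 1274 CPM in NT3 and 655 to 885 CPM in vehicle libraries, without overlap, with 5 of 6 tested markers at an unadjusted p under 0.05, and their part was not tested either. At week 11 the median was -0.04 (0.00 over all) with 11 positive (50.7% of all). It turned to 0.04 with 18 positive without vehicle rat 27 and to 0.03 with 19 positive in limma voom. Without NT3 rat 36 it was 0.01, and without NT3 rat 71 it was 0.00. There were 0 genes (0%) called or at an unadjusted p under 0.05 by edgeR, against 0% and 1.52% of all, and 0 called by DESeq2 and limma voom. Psmb8 at -0.41 (SE 0.21) and Gbp2 at -0.47 (SE 0.24) had the smallest p, and were at -0.06 (SE 0.16) and -0.18 (SE 0.22) without rat 27. Without 1 library up to 3 genes reached an unadjusted p under 0.05, 3 without vehicle rat 17 or 50, 2 without vehicle rat 33 and 1 without vehicle rat 27 or 57 or NT3 rat 69 or 89.

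NT3 against sham set treated stroke rats against rats without a stroke and shares its libraries with both comparisons above. With the weeks averaged edgeR called 0 of 32 (0% of all), DESeq2 and limma voom 0 each, and 3 (9.38%; 10.6% of all) had an unadjusted p under 0.05. These were Ifi27 at -0.24 (SE 0.10; edgeR adjusted p = 0.461), Irf9 at -0.14 (SE 0.06) and Ifit3 at 0.63 (SE 0.29), and the number was 1 without sham rat 8 or 11 or NT3 rat 85, and 0 without NT3 rat 25. At week 5 Irf9, at -0.21 (SE 0.09), made the 1 gene at an unadjusted p under 0.05 (3.12%; 2.4% of all), with edgeR, DESeq2 and limma voom calling 0 (0% of all by edgeR), and Ifit2 came next at 0.63 (SE 0.41). Without sham rat 51 or 74, or NT3 rat 25, 56 or 85, it was 0 genes. At week 11 Isg15 at -0.51 (SE 0.23), Ifi27 at -0.31 (SE 0.14) and Ifit3 at 0.84 (SE 0.39) made 3 (9.38%; 9.12% of all), and the 3 tools again called 0 (0% of all by edgeR). Without sham rat 54 it was 5 genes, and without sham rat 8 or 11, or NT3 rat 89, it was 1.

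The comparison of weeks in vehicle rats gave mostly positive values. In week 11 against week 5 vehicle libraries 28 of 32 genes were positive, against 44.9% of all tested transcripts. The median log2 fold change was 0.35, against -0.02 over all tested transcripts. Values were positive for all 4 signalling factors (median 0.29), both sensors, 10 of 13 effectors (0.40), all 6 genes of the ISG15 class (0.35) and all 4 class I genes (0.68). In the remaining class 2 of 3 genes were positive, with a median of 0.08. Irf1 was at 22.4 ± 4.65 CPM at week 11 and 15.8 ± 0.485 at week 5 (SD, n = 5 each), without overlap, and differed by 0.50 (SE 0.13; edgeR adjusted p = 0.0756). Gbp2 was at 97.8 ± 41.6 and 54.7 ± 17.2 CPM (SD, n = 5 each), with overlap, and differed by 0.84 (SE 0.24; edgeR adjusted p = 0.125). The fold changes were 0.90 (SE 0.28) for Usp18, 0.91 (SE 0.38) for Oas1a and 0.85 (SE 0.41) for Ifit3. Oasl2 differed by 0.55 (SE 0.17) and Dhx58 by 0.61 (SE 0.23). Of the class I genes Psmb8 differed by 0.65 (SE 0.21), Psmb9 by 0.70 (SE 0.25) and Tap1 by 0.74 (SE 0.25). Without rat 27 they differed by 0.31 (SE 0.16), 0.27 (SE 0.17) and 0.25 (SE 0.16). Without rat 27 Gbp2 differed by 0.55 (SE 0.22), Oas1a by 0.50 (SE 0.35), Ifit3 by 0.40 (SE 0.38) and Irf1 by 0.38 (SE 0.13).

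EdgeR called 0 of 32 genes in this comparison, against 0.844% of all transcripts (106), while 16 of 32 (50%), all positive, had an unadjusted p under 0.05, against 8.82% of all. DESeq2 called 2, Irf1 and Gbp2 (1.25% of all), with 16 at an unadjusted p under 0.05 (7.2% of all), and limma voom called 0 (0.773% of all), with 7 (9.21% of all). The number depended on rat 27: without it 5 genes were at an unadjusted p under 0.05, the median was 0.25 and 28 of 32 were positive, while 1 transcript of all was called. Without rats 8 and 27 it was 6 genes, against 6.6% of all transcripts, with a median of 0.25. Without vehicle rat 57 it was 9 genes, and Irf1 was then called (edgeR adjusted p = 0.0487), with 214 transcripts called in all. Without vehicle rat 33 edgeR called 1 gene, Oasl2, among 133 transcripts in all. In the same comparison 12 of 15 tested macrophage markers were called higher, and their summed level lay at 194 to 272 CPM at week 5 and 428 to 1075 CPM at week 11. Summed T and NK cell markers lay at 11.4 to 16.3 CPM and 17.6 to 61.3 CPM, without overlap. Of 13 listed T and NK cell markers 4 were tested, of which 3 were positive and 1 was called higher (median log2 fold change 0.19). Summed fibroblast markers lay at 655 to 885 CPM and 900.2 to 1255 CPM, also without overlap. Of 6 tested fibroblast markers 5 had an unadjusted p under 0.05 and 0 were called. The part of these cells in the values above was not tested.

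Sham rats gave values of the same sign for most genes: 27 of 32 were positive in week 11 against week 5, against 61.4% of all transcripts. The median was 0.19 (0.04 over all). Oasl differed by 0.53 (SE 0.21; edgeR adjusted p = 0.988) and Isg15 by 0.55 (SE 0.24; edgeR adjusted p = 0.988), the 2 genes (6.25%; 3.73% of all) at an unadjusted p under 0.05. Without sham rat 11 or rat 60 it was 0 genes, without rat 64 or rat 81 it was 1, and without rat 54 or rat 8 it was 4 and 5. EdgeR called 0 (0% of all) and DESeq2 0, while limma voom with quality weights called 4 (Eif2ak2, Ifih1, Ifit2 and Isg15), or 12.5% of the genes, against 17.6% of all transcripts (2209). In that limma fit 9 genes had an unadjusted p under 0.05, a count not compared with vehicle rats, since 17.6% of all transcripts were called. Without rats 8 and 27 the sham median was 0.27, against 0.25 in vehicle rats, so which arm had the larger median depended on the fit. Without these rats 6 genes were at an unadjusted p under 0.05 in each of these arms. The share of all transcripts in that fit is given above for vehicle rats alone, so these counts do not compare the arms. In NT3 rats 25 of 32 were positive (50.8% of all), with a median of 0.09 (0.00 over all). For NT3 rats edgeR called 0 (0% of all), with 0 at an unadjusted p under 0.05 (1.58% of all). DESeq2 and limma voom called 0 each. Trim25 at 0.18 (SE 0.09) and Ifit3 at 0.78 (SE 0.39) had the smallest p there, and the number was 4 without NT3 rat 71, 2 without rat 36 or 62 and 1 without rat 69.

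The change between weeks was also compared between arms directly, and no gene was called. For vehicle against sham edgeR called 0 of 32 (0% of all) and had 0 at an unadjusted p under 0.05 (3.06% of all), with DESeq2 and limma voom calling 0. Irf1 had the smallest p, with a difference of 0.36 (SE 0.19; edgeR adjusted p = 0.987), followed by Tap1 at 0.64 (SE 0.36), which was 0.15 (SE 0.22) without rat 27. It was 2 genes without vehicle rat 50 or sham rat 64, and 1 without vehicle rat 17, 33 or 57 or sham rat 11, 51 or 54. For NT3 against vehicle 4 of 32 (12.5%), all negative, had an unadjusted p under 0.05, against 3.01% of all, and edgeR called 0 (0% of all), as did DESeq2 and limma voom. They were Gbp2 at -0.94 (SE 0.34; edgeR adjusted p = 1), Psmb8 at -0.68 (SE 0.30), Irf1 at -0.42 (SE 0.19) and Psmb9 at -0.75 (SE 0.35). Without rat 27 it was 1 gene, with Gbp2 at -0.66 (SE 0.31) and Psmb8 at -0.33 (SE 0.21), and without any of rats 36, 42, 62, 71 and 85 it was 2.

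**Figure D4:**
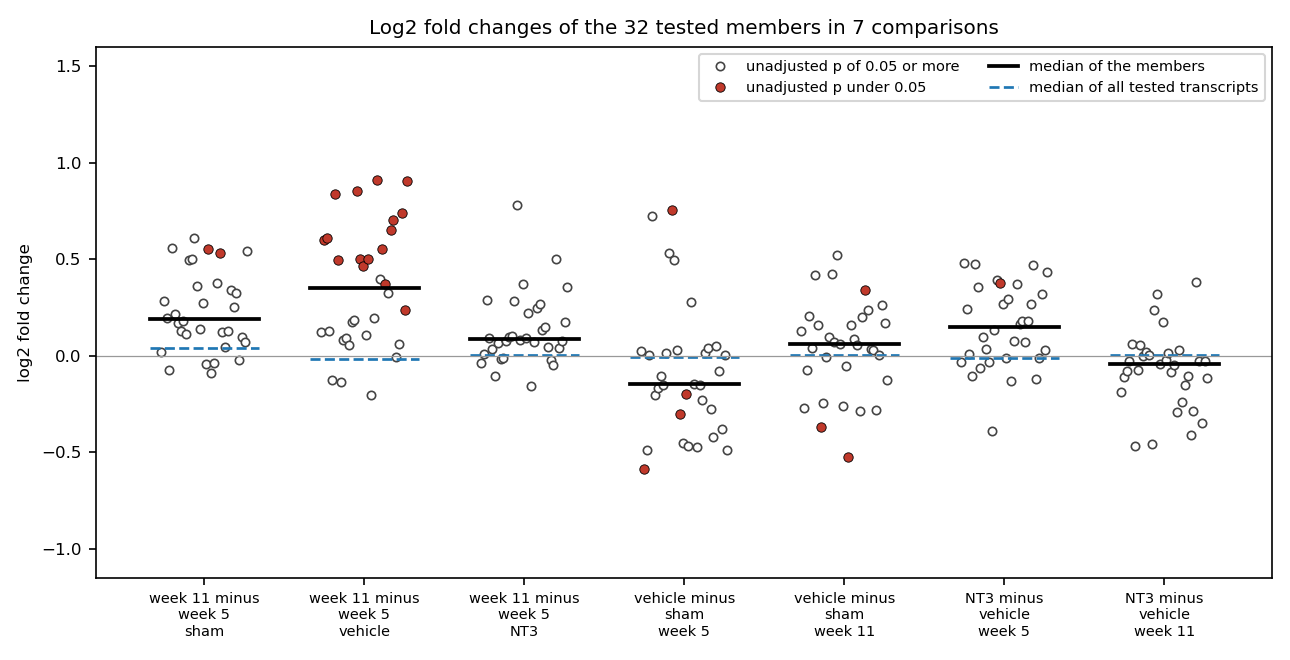
Log2 fold changes of the 32 tested genes (points) in 7 comparisons, filled where the unadjusted edgeR p was under 0.05, with a solid line for their median and a dashed line for the median of all 12556 tested transcripts. Week 11 against week 5 in vehicle rats holds 16 filled points and a median of 0.35.

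**Figure D5:**
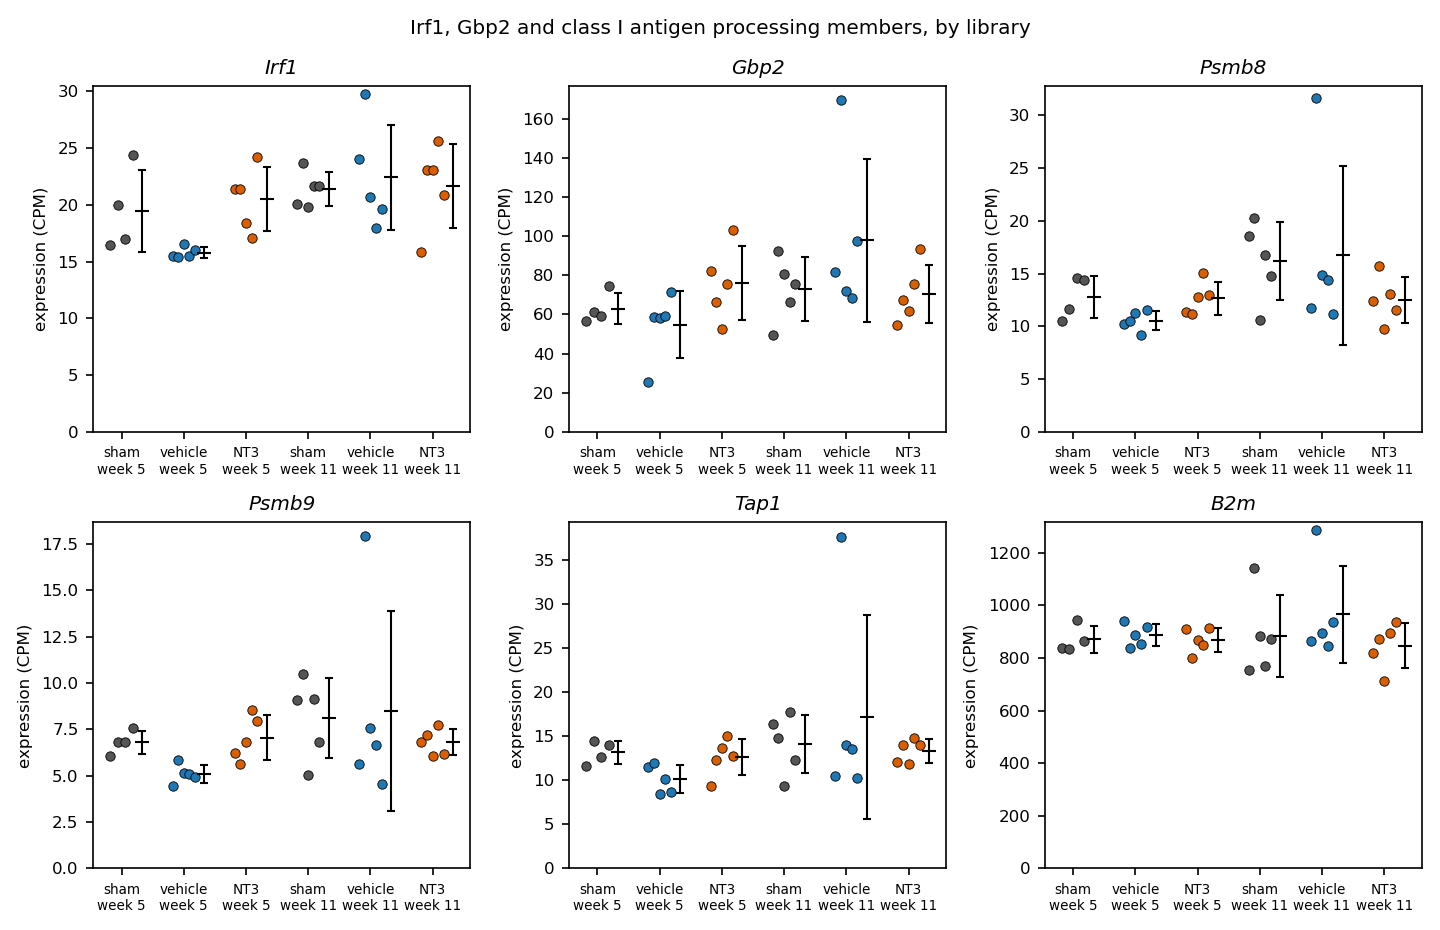
Expression in CPM of Irf1, Gbp2, Psmb8, Psmb9, Tap1 and B2m in each library (points) by group, with bars for the mean ± SD of 4 week 5 sham libraries and 5 libraries in each other group. Vehicle rat 27 of week 11 is the highest point of each panel, at 31.6 CPM for Psmb8 and 169 CPM for Gbp2.

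Other genes of the pathway gave few calls. Among 14 tested ligands, receptors and signalling genes, of 24 listed, edgeR called 1, Ptpn6 (the phosphatase SHP-1, found mainly in blood cells), in week 11 against week 5 vehicle rats. It was at 10.04 ± 4.05 and 4.75 ± 0.731 CPM (SD, n = 5 each), and differed by 1.06 (SE 0.22; edgeR adjusted p = 0.0197). Of 34 tested other interferon-stimulated genes, of 49 listed, 2 were called in the same comparison and none in the other 13. Ifi47, an interferon-inducible GTPase, differed by 1.32 (SE 0.28; edgeR adjusted p = 0.0197) and Epsti1 by 1.54 (SE 0.36; edgeR adjusted p = 0.0354), and 15 of the 34, all positive, had an unadjusted p under 0.05. None of 17 tested genes of nucleic acid sensing (4 at an unadjusted p under 0.05) and none of 13 of class I presentation (4) were called by edgeR there. Of all transcripts, 0.844% were called there and 8.82% had an unadjusted p under 0.05. The calls of Ptpn6, Ifi47 and Epsti1 share their libraries with the 12 called macrophage markers. Without rat 27 only 1 transcript of all was called in this comparison, so these calls did not all hold without that library.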

How the data were processed

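Counts of reads per RefSeq transcript were deposited by the authors for 29 rat libraries, 1 per rat, unnormalized. Reads were aligned to rn6 (Rnor_6.0) and counted, with bcl2fastq 1.8.4, TopHat2, Picard and HTSeq named per the submitters' processing notes. Reads outside features were left out of library sizes, and made up 25.4% to 38.3% of a library. Symbols came from RefSeq (17090 of 18092 transcripts matched). EdgeR 4.0.16 (R 4.3.3) fitted 6 group means to all libraries by quasi-likelihood, with filterByExpr (minimum count 10, minimum total 15), TMM factors (0.9741 to 1.061) and Benjamini-Hochberg adjustment over 12556 transcripts at 0.05 in each of 14 comparisons. It was tested on simulated data with the same spread for every transcript and no library that stood apart. That test does not cover libraries that stand apart in many genes. DESeq2 1.42.0, limma voom with quality weights (limma 3.58.1), DESeq2 size factors, no filter, counts per gene, a fit on the groups of each comparison alone, a covariate for reads outside features and leaving out each library were alternatives. Log2 CPM used a prior count of 2. Relations were permuted within groups 100000 times (10000 in alternatives), two-sided.

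Samples were grouped by the labels. The labels do not describe technical repeats, and p-values measure the spread between rats. The genes and lists were chosen with earlier results of these data known. Values of each library are given for the 2 genes of highest mean in each class, those with the smallest p in each comparison (3 where weeks were averaged, otherwise 2) and the 5 that stood farthest above their group's median in 1 library, plus Irf7 and Eif2ak2, chosen after their values were seen. 1 gene of the other lists is not reported here.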

Additional observations from a re-analysis of the deposited data

Results flagged for a closer look

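Of 192 sets of 1 gene in 1 group, 20 held a library far from the others by Dixon's ratio of the gap to the range (above its 95% critical value), in 10 libraries. Chance flags about 1 in 20 groups, and genes of 1 library are not independent. In week 11 sham rat 8, Ifih1 was lowest at 3.57 CPM (others 12.9 to 15.7), Ifit2 was lowest at 2.36 CPM (others 14.8 to 18.7), Mx2 was lowest at 50.4 CPM (others 74.4 to 82.9), Eif2ak2 was lowest at 9.45 CPM (others 60.3 to 75.8) and Parp9 was lowest at 15.2 CPM (others 30.1 to 32.9). In week 11 sham rat 11, Oasl was highest at 11.4 CPM (others 5.51 to 6.21). In week 5 sham rat 51, Mx2 was highest at 90.0 CPM (others 66.9 to 69.3) and Oas1a was highest at 5.35 CPM (others 2.37 to 2.61). In week 5 sham rat 60, Oasl was lowest at 3.55 CPM (others 5.22 to 5.28). In week 5 sham rat 64, Ifi27 was highest at 462 CPM (others 363 to 378). In week 5 sham rat 74, Parp9 was lowest at 22.5 CPM (others 26.7 to 26.9). In week 5 vehicle rat 1, Isg20 was highest at 3.09 CPM (others 2.08 to 2.31), Gbp2 was lowest at 25.6 CPM (others 58.3 to 71.4) and Gbp5 was lowest at 6.12 CPM (others 14.1 to 15.3). In week 5 NT3 rat 56, Dhx58 was lowest at 3.4 CPM (others 5.08 to 5.95) and Usp18 was lowest at 3.6 CPM (others 6.01 to 6.97). In week 11 vehicle rat 27, Psmb8 was highest at 31.6 CPM (others 11.2 to 14.9), Tap1 was highest at 37.7 CPM (others 10.3 to 14) and B2m was highest at 1287 CPM (others 844 to 937). In week 11 NT3 rat 83, Oasl was highest at 8.85 CPM (others 4.63 to 5.54).

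Rat 8 had the smallest share of reads outside features (25.4%) and rat 27 the largest (38.3%). No difference between weeks of an effect was called.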

How the results depend on the processing

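Under the alternatives, the count of called genes stayed at 0 in 14 comparisons except as follows. DESeq2 called 2 in week 11 against week 5 vehicle rats. Limma voom called 1 between vehicle and sham rats over both weeks, 1 at week 5 and 4 in week 11 against week 5 sham rats. Leaving out 1 library gave 0 to 1 called genes in week 11 against week 5 vehicle rats. The relation of Irf7 and Psmb8 had r = 0.488 without rats 8 and 27 and missed the threshold there, and between 0.461 and 0.659 without 1 library. The relation of Irf7 and the share of reads outside features ranged from r = -0.362 (without vehicle rat 27) to 0.0359 (without sham rat 54, where its sign turned). Of the log2 fold changes of named genes, 669 kept their direction and side of the threshold and 5 passed it. For the relations 213 values kept theirs, as did 64 levels and 290 counts of called genes. The main fit called none of these genes, so the tally does not show that sizes held. Psmb8 between NT3 and vehicle rats at week 11 counted as kept, at -0.41 with all libraries and -0.06 without rat 27. The ISRE share kept its side with the stricter letters (14 of 31). The causes were not tested. No paired analysis was possible because each rat gave 1 library and the rat numbers differ between groups. Precision is limited by 4 or 5 rats per group and, for Ifit1 and the interferons, by few reads, and the depth of rat 27 was the lowest.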
